A study of Mus musculus with 6 samples.

Results

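Collagen chain genes encode the polypeptides that assemble into collagens. They were followed here in RNA sequencing of 6 biopsies of mouse lung squamous tumours. Members are the genes whose symbol is COL, a number, A and a number, with COL17A1 left out, and 43 of the 46937 symbols of the count table met that rule. Of these, 11 are fibrillar chains, 6 are basement membrane chains of type IV, 9 are FACIT chains (fibril-associated collagens with interrupted triple helices) and 17 are other chains. A filter on low counts left 41 members among 21201 genes tested. COL9A1, with at most 18 counts in a library, and COL19A1, with at most 9, were not tested.

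The control group, PSC, held 3 libraries from tumours with an always active PI3K (Pik3ca H1047R), overexpressed SOX2 and loss of Cdkn2a and Cdkn2b. The PSCN group held 3 libraries from tumours with all of those alterations plus expressed NSD3 T1242A, a mutant of a histone H3 lysine methyltransferase. The labels give PSC the NSD3 wild-type genotype. The promoter or Cre driver, the cell of origin and the age of the mice are not given in the sources used here. NSD3 itself stood at 79.7, 96.7 and 102 CPM across PSC and at 821, 918 and 1932 CPM in PSCN, which follows the labels. CPM are counts scaled to a common library size after TMM adjustment. Nothing in the labels ties each biopsy to a mouse of its own. The p-values reflect the spread among these 6 samples, which may be technical in part for PSC and wholly for PSCN. Values are listed in the order of libraries 1 to 3 of each group.

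Collagens are trimers wound into a rope-like helix, which forms only where glycine returns at the same place of every codon triplet. Fibrillar chains carry long unbroken helices that pack into the fibrils of connective tissue, bone and cartilage. Type IV chains have helices with many breaks and form the sheet-like network under epithelium and endothelium, and FACIT chains sit on fibril surfaces. In lung tumours, fibroblasts are a known major source of fibrillar collagen, while epithelial and endothelial cells also make type IV chains.

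Coding sequence of 4 members shows that structural difference, which sets the fibrillar class apart but does not separate the remaining classes from each other. Glycine codons at the repeat are in capitals. The COL1A1 and COL3A1 stretches open the longest unbroken repeat of each, at codons 168 to 191 and 164 to 187. The COL4A1 and COL14A1 stretches, codons 215 to 234 and 1506 to 1525, each cross a break.
COL1A1: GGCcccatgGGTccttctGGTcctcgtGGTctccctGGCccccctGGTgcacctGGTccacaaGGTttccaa
COL3A1: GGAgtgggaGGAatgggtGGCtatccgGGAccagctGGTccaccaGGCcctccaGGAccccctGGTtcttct
COL4A1: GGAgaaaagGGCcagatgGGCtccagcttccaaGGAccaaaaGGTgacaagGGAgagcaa
COL14A1: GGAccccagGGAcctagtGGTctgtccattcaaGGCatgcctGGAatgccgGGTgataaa
The longest unbroken repeat had a median of 338 triplets over the 11 fibrillar chains. COL24A1 and COL27A1, the divergent fibrillar chains, had the shortest at 216 and 217. The median was 43.5 triplets in the basement membrane class, 57 in the FACIT class and 44 in the other class, with a maximum of 113 outside the fibrillar class. Reading frames were the longest from ATG to a stop in GENCODE M21 transcripts of GRCm38.

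Total counts ranged from 69563622 to 72807077 per library. PSC library 3 correlated more with the PSCN libraries (mean r of log2 CPM across genes 0.962) than with its own group (0.925). The other 5 libraries correlated more with their own group. The squamous keratin KRT5 stood at 52.1, 575 and 2035 CPM across PSC and at 3487, 7319 and 2678 CPM in PSCN. The airway secretory marker SCGB1A1 stood at 22218, 10735 and 572 CPM and at 941, 360.5 and 995 CPM, so PSC libraries 1 and 2 stood apart from the other 4 in both markers. By XIST, PSC libraries 2 and 3 were female and the other 4 male, so the PSC libraries did not all come from 1 mouse. For the collagens, PSCN library 1 stood apart from all others, and results that rest on it or on PSC library 3 are also given without them. In bulk tissue, fewer cells of a type and less RNA per cell cannot be told apart.

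PSCN library 1 held far more collagen RNA than any other library. Collagen chain genes took 0.693%, 0.434% and 0.741% of all counts in PSC. The shares were 4.84%, 0.426% and 0.372% in PSCN. The Wilson 95% interval of the 4.84% share ran from 4.839% to 4.849%, covering counting error only. PSCN library 1 thus lay above every other library. PSCN library 2 lay just under PSC library 2 in this share, but above it after TMM scaling (summed 4673 against 3993 CPM), so the order of those libraries depends on the scaling. Within PSCN library 1, COL1A1 and COL1A2, the chains of type I collagen, made up 70.1% of the collagen counts, against 15.2% to 31.3% in the other 5 libraries.

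Levels per kilobase of exon, the scale on which genes can be compared, differed by class. The fibrillar class summed to 315, 154 and 464 CPM per kb across PSC and to 5091, 229.6 and 138 in PSCN. The basement membrane class summed to 303, 231 and 219.5 CPM per kb across PSC and to 329, 217 and 202 in PSCN. The fibrillar class was thus high in 1 library, while the basement membrane class varied by less than 2 times over all 6. The FACIT class ran from 19.7 to 37.7 CPM per kb in 5 libraries and reached 99.4 in PSCN library 1. The other class ran from 99 to 195 and reached 577 there. Fibrillar chains held 83.5% of the summed collagen level in PSCN library 1, and 28.8% to 52.6% elsewhere. With the longest transcript in place of union exon length, these shares were 86.4% and 34.4% to 59.4%. In PSC library 2 the fibrillar and basement membrane shares were then 38.1% and 38.7%, against 30.4% and 45.6% by union length. By union exon length, COL4A1 was the most abundant chain per kb in PSC libraries 1 and 2 and in PSCN libraries 2 and 3. COL1A1 ranked first in PSC library 3 and PSCN library 1. These ranks depend on the length used. Union and longest transcript lengths are 9816 and 5564 bases for COL3A1, and 7464 and 6615 bases for COL4A1. By longest transcript, COL3A1 ranked above COL4A1 in PSC library 2 and above COL1A1 in PSC library 3.

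**Figure D1:**
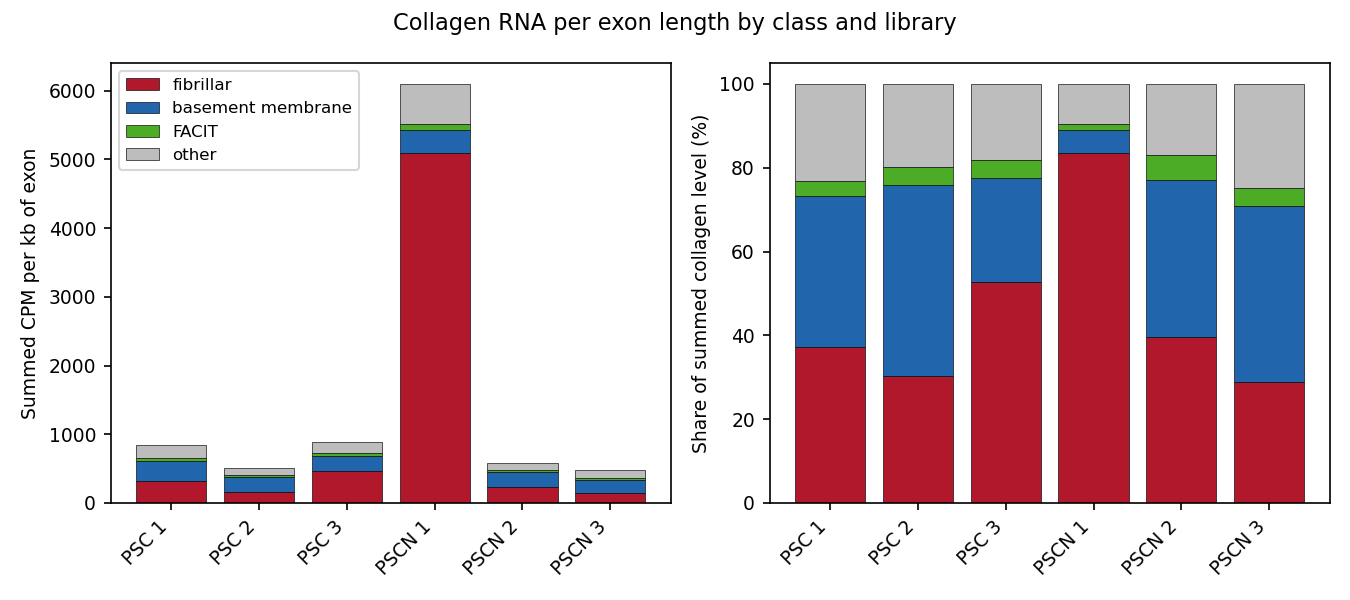
Summed level of collagen chain genes by class in each library, as CPM per kilobase of exon (left) and as a share of the summed collagen level in percent (right). PSCN library 1 reaches 5091 CPM per kb in the fibrillar class, which is 83.5% of its collagen level, while its basement membrane level of 329 CPM per kb is close to that of PSC library 1.

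No collagen chain gene passed an adjusted p of 0.05 in either direction with edgeR's quasi-likelihood test, where 0.00472% of all genes tested passed as higher and 0% as lower. At an unadjusted p under 0.05, 1 member was higher (COL11A2) and 3 were lower (COL14A1, COL6A6 and COL9A2) in PSCN. Over all genes tested these shares were 9.48% and 12.2%. The groups did not overlap, with PSCN above PSC, for 0 of 41 members (15.2% of all genes tested), and with PSCN below PSC for the same 3 lower members (13.4%). The members' counts were under the background in each direction. DESeq2 called COL11A2 higher (5.58% of all genes) and COL14A1 and COL6A6 lower (9.09%), and left 7 members without an adjusted p. Voom of limma with quality weights called COL7A1 higher (8.43%) and 0 members lower (5.84%). The authors' deposited table, from DESeq2, has 1 member higher (3.92% of its genes with an adjusted p) and 2 lower (8.1%), the same 3 genes that DESeq2 called here. It leaves p blank for COL1A1, COL1A2, COL5A2, COL11A1, COL22A1, COL6A1 and COL6A3.

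PSCN library 1 was the highest of the 6 libraries for 25 of 41 members, against 14.9% of all genes tested. It exceeded every other library by over 4 times for 11 members, against 0.59% of all genes. Those 11 were 8 of 11 fibrillar chains, the FACIT chain COL22A1 and the other chains COL6A3 and COL6A5. This description was chosen after the values were seen. Over the 41 members, 26 log2 fold changes of PSCN over PSC were positive, and without PSCN library 1 only 9 were, so that 32 were negative, against a median near 0 over all genes tested (-0.01 with all libraries and -0.07 without that library).

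**Figure D2:**
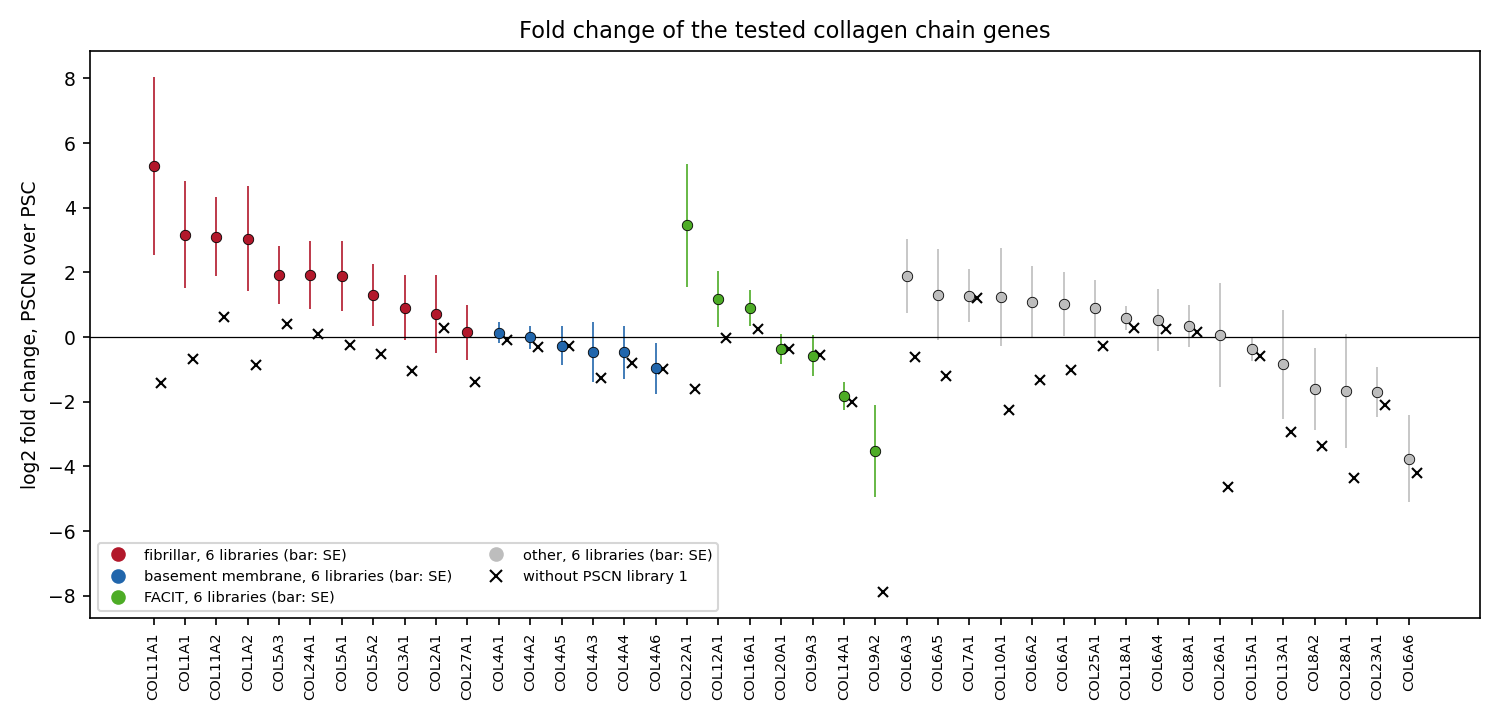
Log2 fold change of PSCN over PSC for the 41 tested collagen chain genes, by class, with bars for the SE (circles, 6 libraries), and the same value without PSCN library 1 (crosses). All 11 fibrillar circles are positive and 7 of the 11 crosses are negative, and the lowest cross, COL9A2, belongs to a gene with 0 counts in both remaining PSCN libraries.

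All 11 fibrillar chains had their highest CPM in PSCN library 1, although COL2A1 had 21 counts both there and in PSCN library 3. COL1A1 (chromosome 11, 94936224 to 94953042, GRCm38), the main chain of type I collagen of skin, tendon and bone, stood at 744, 278 and 1228 CPM across PSC and at 19229, 617 and 324 CPM in PSCN. COL1A2 (chromosome 6, 4504814 to 4541544), its partner chain, stood at 749, 328 and 1051 CPM and at 16833, 490.3 and 282 CPM. For both genes PSCN libraries 2 and 3 lay within or near the PSC range, and PSCN library 1 was 15.7 and 16 times the next highest library. COL1A1 took 1.81% of all counts of that library. The log2 fold change of COL1A1 was 3.16 (SE 1.65, adjusted p = 0.306) and became -0.67 without PSCN library 1. That of COL1A2 was 3.05 (SE 1.62, adjusted p = 0.314) and became -0.87. In the group means, COL1A1 stood at 749.9 ± 476 CPM across PSC and at 6723 ± 10832 CPM in PSCN (SD, n = 3 each), so the PSCN spread exceeded its mean.

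COL3A1 (chromosome 1, 45311538 to 45349706), which encodes the fine fibrils of soft tissue and vessel walls, exceeded the other libraries by less in the same library. It stood at 922, 608 and 1331 CPM across PSC and at 4479, 562 and 351 CPM in PSCN. Its log2 fold change was 0.91 (SE 0.99, adjusted p = 0.603) and -1.05 without PSCN library 1, where both remaining PSCN libraries lay below every PSC library. The ratio of COL3A1 to COL1A1 counts was 1.24, 2.19 and 1.08 across PSC and 0.233, 0.911 and 1.08 in PSCN. The groups overlapped in that ratio (exact permutation test, two-sided p = 0.2, adjusted p = 0.36 over the 9 chain pairs tested, smallest possible p 0.1). The ratio of COL1A1 to COL1A2 counts stayed between 0.845 and 1.26 in all 6 libraries.

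Type V and type XI chains, which help set fibril diameter from within, were also highest in PSCN library 1. COL5A1 stood at 62 to 179 CPM across PSC and at 1133, 123 and 80.3 CPM in PSCN, and COL5A2 at 109 to 258 CPM and at 1202, 162 and 117 CPM. COL5A3 (chromosome 9, 20770050 to 20815067) stood at 31.4, 12.1 and 35.5 CPM and at 232, 36 and 33.1 CPM. Its log2 fold change was 1.93 (SE 0.89, adjusted p = 0.264) and 0.40 without PSCN library 1. COL11A1 (chromosome 3, 114030540 to 114220718), a chain of cartilage and of activated tumour stroma, stood at 2.66, 0.185 and 3.75 CPM across PSC and at 259, 1.61 and 0.0419 CPM in PSCN. PSCN thus held both the highest and the lowest COL11A1 library, and the log2 fold change of 5.30 (SE 2.75, adjusted p = 0.304) became -1.41 without PSCN library 1.

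COL11A2 (chromosome 17, 34039437 to 34066685), the cartilage and bone partner of COL11A1, had the smallest p of the fibrillar class. It stood at 7.27, 7.19 and 11.1 CPM across PSC and at 194, 7.4 and 18.5 CPM in PSCN. PSCN library 2 lay inside the PSC range and library 3 just above it. Its log2 fold change was 3.11 (SE 1.23, adjusted p = 0.222 with edgeR, 0.0347 with DESeq2) and 0.61 without PSCN library 1. The authors' deposited table gives it a log2 fold change of 3.07 with an adjusted p of 0.0364.

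Of the remaining fibrillar chains, COL24A1, a bone-associated chain, stood at 1.31 to 5.6 CPM across PSC and at 30.4, 3.74 and 3.29 CPM in PSCN. COL27A1 stood at 13.8 to 35.1 CPM and at 57.1, 8.88 and 8.08 CPM. COL2A1, the main cartilage collagen, was near the limit of detection in all libraries, with 0 to 21 counts. The median log2 fold change of the 11 fibrillar chains was 1.92, and -0.51 without PSCN library 1. PSCN library 1 exceeded every other library by over 4 times for the type I, type V, type XI and COL24A1 chains. It exceeded them by 3.37 times for COL3A1 and 1.62 times for COL27A1, and COL2A1 had 21 counts in it.

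**Figure D3:**
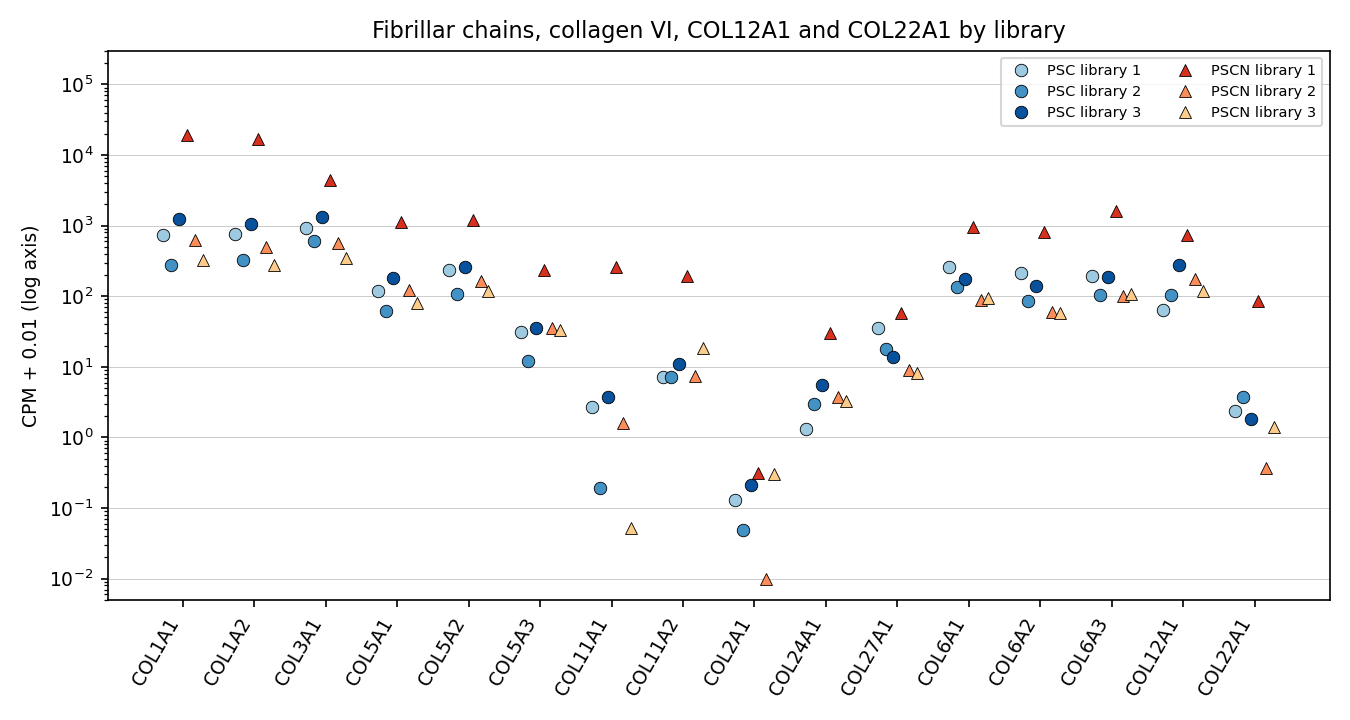
CPM plus 0.01 on a log axis for the fibrillar chains, 3 type VI chains, COL12A1 and COL22A1 in each library (circles PSC, triangles PSCN). The red triangle of PSCN library 1 is the highest point of each gene, at 19229 CPM for COL1A1 and nearly level with PSCN library 3 for COL2A1, and the other PSCN triangles overlap the PSC circles for most genes.

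Bone markers were high in the same library as the fibrillar chains. IBSP, the bone sialoprotein, stood at 2035 CPM in PSCN library 1 and at 0.819 CPM or less in the other 5 libraries. SP7, the osteoblast transcription factor, stood at 96.7 CPM there and at 0.108 CPM or less elsewhere. DMP1, of osteocytes and mineralizing matrix, stood at 63.1 CPM there against at most 2.32 CPM. All 6 tested of the 7 bone markers were highest in that library, 4 of them by over 4 times. With edgeR, 3 were higher and 0 lower at an unadjusted p under 0.05 (9.48% and 12.2% of all genes tested). Without overlap, 1 lay above and 0 below PSC (15.2% and 13.4%). The median log2 fold change of the 6 was 3.23. It was 0.74 without PSCN library 1, where 1 of the 6 was negative, against -0.51 for the fibrillar chains. Summed CPM of the 7 were 44.2, 33.7 and 67.6 across PSC and 2792, 59.7 and 101 in PSCN. Their part in the collagen levels was not tested.

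Fibroblast and cartilage markers were also highest in summed CPM in PSCN library 1, by less than the bone markers. The 10 fibroblast markers summed to 650, 387 and 473 CPM across PSC and to 1056, 234 and 225 CPM in PSCN, and 2 of the 10 (FAP and LUM) exceeded every other library by over 4 times in PSCN library 1. Of the 11 cartilage markers, 6 were tested, and summed levels were 93.7 to 117 CPM across PSC and 164, 86.2 and 94.5 CPM in PSCN. Of the 6 tested, 2 were highest in PSCN library 1. Aggrecan (ACAN), not tested, stood at 19.4 CPM in PSCN library 1 and at 0.0792 CPM or less elsewhere. Chondromodulin CNMD, also not tested, had counts in PSC library 2 only (6 counts), and matrilin MATN1 was at 0 CPM in PSCN library 1.

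Basement membrane chains were highest in PSCN library 1 for 2 of 6 genes and had 0 members at an unadjusted p under 0.05 with edgeR (DESeq2 and limma called 0 of them). COL4A1 (chromosome 8, 11198423 to 11312826), the ubiquitous type IV chain, stood at 1099, 702 and 714 CPM across PSC and at 1228, 877 and 673 CPM in PSCN. COL4A2, its partner (chromosome 8, 11312805 to 11449287), stood at 829, 528 and 464 CPM and at 831, 566 and 415 CPM. The groups overlapped, with log2 fold changes of 0.14 (SE 0.32) and -0.01 (SE 0.35). Without PSCN library 1 the values were -0.10, with the sign turned, for COL4A1 and -0.30 for COL4A2. The COL4A1 to COL4A2 ratio stayed between 1.33 and 1.62.

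Type IV genes lie head to head in pairs, so that both starts of a pair face away from each other at a shared promoter. The COL4A1 and COL4A2 gene models share their first 22 bases on opposite strands (chr8:11312805-11312826, GRCm38.p6, COL4A2 strand). The COL4A4 and COL4A3 starts are 71 bases apart (chr1:82586850-82586920, COL4A3 strand), with the COL4A4 start from RefSeq and that of COL4A3 from GENCODE. COL4A5 and COL4A6 starts on chromosome X are 1342 bases apart. The short intervals are shown since each lies at the starts of both genes of a pair.
COL4A1 and COL4A2: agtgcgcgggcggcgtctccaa
COL4A4 to COL4A3: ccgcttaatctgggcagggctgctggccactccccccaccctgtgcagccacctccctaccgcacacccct

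COL4A3 and COL4A4, chains of the alveolar and glomerular basement membrane, varied together over libraries. COL4A3 stood at 37.4, 86.9 and 7.59 CPM across PSC and at 60.2, 23.5 and 12.5 CPM in PSCN. COL4A4 stood at 46.1, 111 and 9.4 CPM and at 57.5, 38.4 and 24.4 CPM. PSC held both the highest and the lowest library for each gene, with log2 fold changes of -0.46 (SE 0.93) and -0.47 (SE 0.83) that were 0.51 and 0.53 without PSC library 2. AGER, the marker of alveolar type 1 cells, stood at 229, 522 and 37.6 CPM across PSC and at 215, 169.9 and 162 CPM in PSCN, also highest in PSC library 2 and lowest in PSC library 3. The 6 alveolar type 1 markers summed to 603, 1118 and 569 CPM across PSC and to 763, 1042 and 683 CPM in PSCN. Of these, 1 was higher and 0 lower at an unadjusted p under 0.05 (9.48% and 12.2% of all genes tested). Without overlap, 1 lay above and 1 below PSC (15.2% and 13.4%). Their part in the COL4A3 and COL4A4 levels was not tested.

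COL4A5 and COL4A6, the X-linked pair, were lowest in PSCN library 2. COL4A5 stood at 98.7, 159 and 239 CPM across PSC and at 139, 47.2 and 227 CPM in PSCN, and COL4A6, an epithelial and smooth muscle chain, at 57.4, 115 and 132 CPM and at 53.5, 9.19 and 93.3 CPM. Neither passed, with log2 fold changes of -0.27 (SE 0.60, adjusted p = 0.808) and -0.96 (SE 0.79, adjusted p = 0.489). With sex in the fit, the value of COL4A5 was 0.48. All PSCN libraries and PSC library 1 were male, so that value sets PSCN against PSC library 1 alone. The COL4A5 to COL4A6 ratio was 1.72, 1.39 and 1.82 across PSC and 2.6, 5.13 and 2.43 in PSCN. It was higher in 3 of 3 PSCN libraries without overlap, which gives the smallest p the design allows (exact permutation test, two-sided p = 0.1, adjusted p = 0.36 over the 9 pairs).

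**Figure D4:**
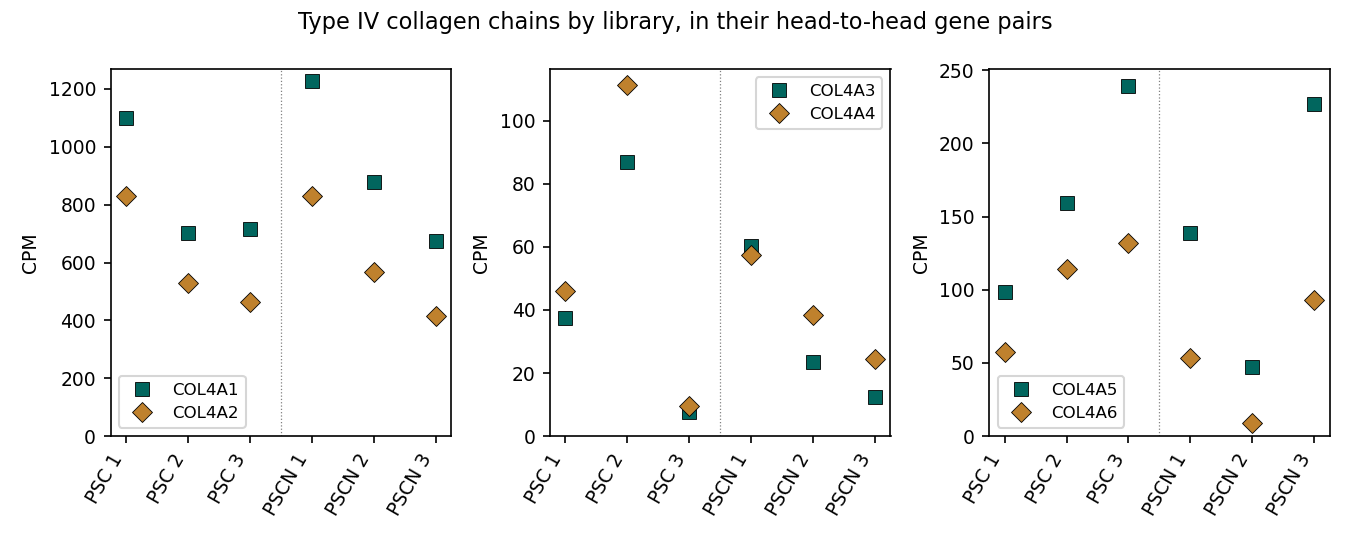
CPM of the 6 type IV chain genes in each library, drawn by head-to-head pair (squares and diamonds), with PSC left and PSCN right of the dotted line. COL4A1 and COL4A2 lie between 415 and 1228 CPM, COL4A3 and COL4A4 are highest in PSC library 2, and COL4A6 is at 9.19 CPM in PSCN library 2.

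Among FACIT chains, COL14A1 (chromosome 15, 55307750 to 55520803), which binds the surface of type I fibrils, had the smallest p of all members. It stood at 65.3, 24.5 and 28.1 CPM across PSC and at 13.8, 10.2 and 9.15 CPM in PSCN. Every PSCN library lay below every PSC library, PSCN library 1 included, in contrast to its type I level. The log2 fold change was -1.83 (SE 0.43, adjusted p = 0.183 with edgeR, 0.00323 with DESeq2). Leaving out each library in turn it ran from -2.08 to -1.25. The authors' deposited table gives -1.85 with an adjusted p of 0.00381.

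Of the 10 fibroblast markers, 3 had positive and 7 negative log2 fold changes, from -2.38 (PI16) to 2.40 (FAP), and 4 were highest in PSCN library 1. PI16 and DPT were lower in every PSCN library (2 of 10, against 13.4% of all genes tested), as COL14A1 was. PI16 stood at 18, 5.42 and 9.68 CPM across PSC and at 2.06, 2.16 and 2.15 CPM in PSCN, and dermatopontin (DPT) at 66.7, 58.3 and 24.7 CPM and at 19.6, 18 and 22.3 CPM. These were the 2 of 10 fibroblast markers at an unadjusted p under 0.05, both lower (12.2% of all genes tested). The markers' part in the COL14A1 level was not tested.

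COL12A1, a FACIT chain of tendon and tumour stroma, stood at 63.1, 106 and 281 CPM across PSC and at 731, 176 and 119 CPM in PSCN (log2 fold change 1.19, SE 0.86, and -0.02 without PSCN library 1). COL22A1, a chain of tissue junctions, stood at 2.38, 3.74 and 1.83 CPM and at 85.9, 0.355 and 1.38 CPM. PSCN library 1 was 23 times the next highest library for COL22A1, and both other PSCN libraries lay under the whole PSC range. Its log2 fold change of 3.46 (SE 1.90) became -1.59 without PSCN library 1. COL16A1 stood at 55.7 to 95.3 CPM across PSC and at 256, 136 and 52.9 CPM in PSCN.

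Type IX chains, which decorate cartilage fibrils, were low. COL9A3 ran from 1.5 to 8.89 CPM across PSC and from 2.73 to 3.99 CPM in PSCN. COL9A2 had 65, 10 and 17 counts across PSC and 7, 0 and 0 counts in PSCN, so its lower value rests on few reads. COL20A1 ran from 2.81 to 9.28 CPM over all libraries. The median log2 fold change of the 7 tested FACIT chains was -0.36, and -0.56 without PSCN library 1.

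Other chains split by type. Type VI chains form beaded filaments around cells, and COL6A1, COL6A2 and COL6A3 build the common trimer. COL6A1 (chromosome 10, 76708792 to 76726168) stood at 256, 134 and 174 CPM across PSC and at 966, 88.9 and 94.9 CPM in PSCN. COL6A3 (chromosome 1, 90765923 to 90843971) stood at 195, 106 and 185 CPM and at 1590.3, 101 and 108 CPM. As with type I, PSCN library 1 was far above every other library. The other PSCN libraries lay below every PSC library for COL6A1 and its neighbour COL6A2. For COL6A3 they lay near the lowest PSC library. The log2 fold changes were 1.03 (SE 0.99) for COL6A1 and 1.89 (SE 1.14) for COL6A3, and -1.02 and -0.62 without PSCN library 1.

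The COL6A3 to COL6A1 ratio was 0.759, 0.79 and 1.07 across PSC and 1.65, 1.14 and 1.14 in PSCN, higher in 3 of 3 PSCN libraries (exact permutation test, two-sided p = 0.1, adjusted p = 0.36 over the 9 pairs). The alternative chain COL6A6 had 45, 32 and 240 counts across PSC and 11, 10 and 0 counts in PSCN. Its log2 fold change was -3.76 (SE 1.35, adjusted p = 0.203 with edgeR, 0.0359 with DESeq2). Most of its PSC counts came from PSC library 3, without which the log2 fold change was -2.27 (adjusted p = 0.235 with edgeR). COL6A5 stood at 36.8 CPM in PSCN library 1 and at 0.321 to 8.53 CPM elsewhere, and COL6A4 at 0.224 to 3.02 CPM in all libraries.

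COL7A1 (chromosome 9, 108953586 to 108984875), the anchoring fibril chain made by squamous epithelium, was low in the 2 PSC libraries with the least KRT5. It stood at 23.7, 56.8 and 249 CPM across PSC and at 291, 275 and 231 CPM in PSCN. PSC library 3 lay inside the PSCN range and the other PSC libraries far below it. The log2 fold change was 1.28 (SE 0.82, adjusted p = 0.387). Without PSC library 3 it was 2.74 and COL7A1 was the only member called by edgeR (adjusted p = 0.0411), where 3.39% of all genes were called higher and 5.4% lower.

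COL17A1, the hemidesmosomal collagen of basal cells that is not counted among the members, stood at 28, 196 and 672 CPM across PSC and at 766, 734 and 525 CPM in PSCN. Of the 6 basal squamous markers 4 were matched by symbol, COL17A1 itself among them. With COL17A1 included, they summed to 136, 1372 and 5074 CPM across PSC and to 8378, 19622 and 6201 CPM in PSCN. Their part in the COL7A1 level was not tested.

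Of the transmembrane chains, COL23A1 had the smallest p. It stood at 125, 47.2 and 15.4 CPM across PSC and at 28.8, 16.4 and 12.6 CPM in PSCN (log2 fold change -1.69, SE 0.76, adjusted p = 0.255). PSC library 3 was again the PSC library inside the PSCN range. COL13A1 stood at 49.2, 28.5 and 0.218 CPM and at 36.8, 4.74 and 1.93 CPM, and COL25A1 ran from 0.163 to 1.4 CPM.

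**Figure D5:**
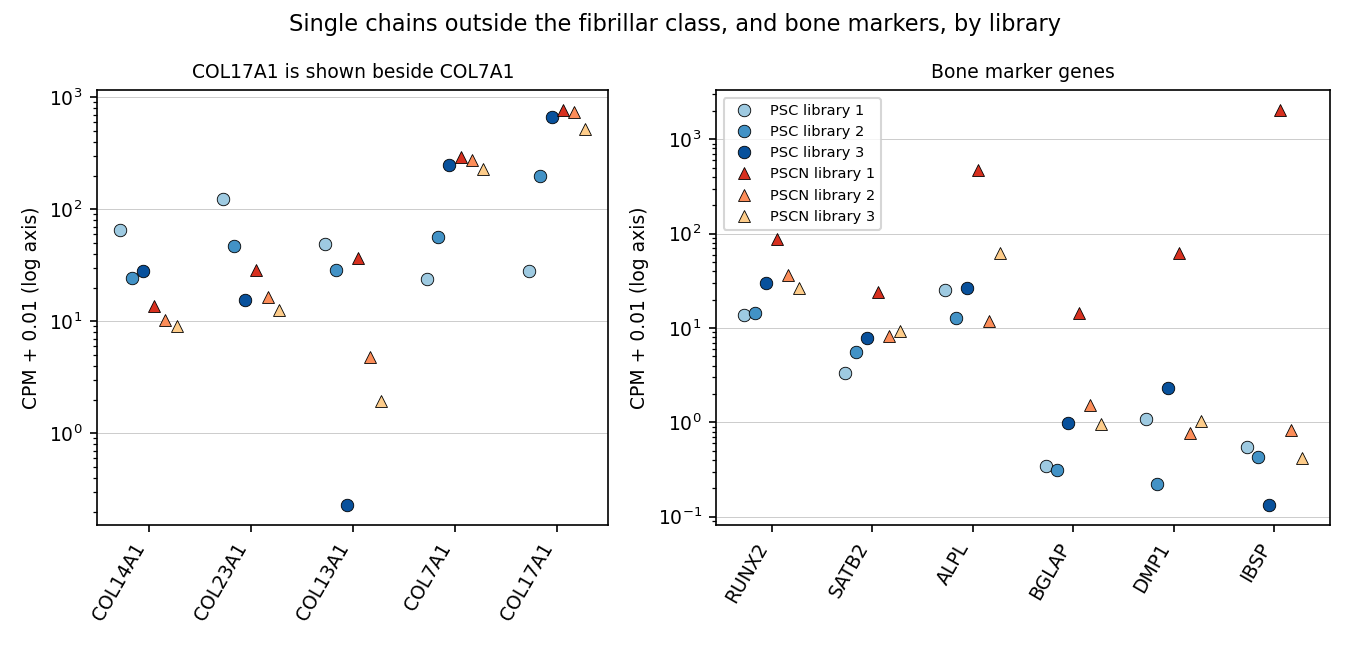
CPM plus 0.01 on a log axis for chains outside the fibrillar class with COL17A1 beside COL7A1 (left), and for 6 bone markers (right), in each library. All 3 COL14A1 triangles lie under the PSC circles, COL7A1 and COL17A1 are lowest in PSC library 1, and IBSP reaches 2035 CPM in PSCN library 1.

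The multiplexins of vascular and epithelial basement membranes overlapped between the groups. COL18A1, the precursor of endostatin, stood at 132, 58.2 and 103 CPM across PSC and at 204, 121 and 116 CPM in PSCN (log2 fold change 0.59, SE 0.37), and COL15A1 ran from 46.5 to 114 CPM. Of the network-forming short chains, COL8A1 ran from 47.6 to 236 CPM and COL8A2 from 1.1 to 45.9 CPM. COL10A1, a marker of hypertrophic cartilage, stood at 23.6 CPM in PSCN library 1 and at 0.572 to 6.67 CPM elsewhere. COL26A1 and COL28A1 were at most 3.49 and 5.13 CPM. The median log2 fold change of the 17 other chains was 0.53, and -1.21 without PSCN library 1.

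Without PSCN library 1, both remaining PSCN libraries lay below every PSC library for 11 members, among them COL3A1, COL27A1, COL6A1, COL6A2, COL22A1 and COL14A1. The count over all genes was 22% in that direction, beside 11 of 41 members. In the other direction, 0 of 41 members lay above PSC without overlap, against 21.7% of all genes. The number at an unadjusted p under 0.05 was then 7 lower (10.6% of all genes) and 0 higher (7.87%), and edgeR called 0 members.

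Genes that build and handle collagen were taken from 4 lists, and edgeR called 0 members of each in either direction. Intracellular biosynthesis, the hydroxylases and chaperones of new chains, had 21 genes with a median log2 fold change of 0.51, and 5 higher and 1 lower at an unadjusted p under 0.05 (9.48% and 12.2% of all genes tested). DESeq2 and limma each called 4 of its genes higher (5.58% and 8.43% of all genes). All 3 PSCN libraries lay above PSC in 6 of the 21 (15.2% of all genes). P4HB, the shared subunit of prolyl hydroxylase, stood at 740.2, 605 and 843 CPM across PSC and at 1098, 1282 and 1164 CPM in PSCN (log2 fold change 0.70, SE 0.21, adjusted p = 0.192). P4HA1, a catalytic subunit, stood at 62, 79 and 115 CPM and at 185, 119.9 and 174 CPM (0.90, SE 0.29). P3H4, of the complex that modifies lysine in helices, stood at 19.4, 19 and 25.2 CPM and at 79.7, 66.2 and 27 CPM (1.44, SE 0.41). These enzymes were higher in every PSCN library, and the median of the list was 0.02 without PSCN library 1.

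Extracellular processing and cross-linking had 13 tested genes, with 0 at an unadjusted p under 0.05 and a median of 0.59 (-0.64 without PSCN library 1). Its procollagen protease BMP1 stood at 68.2 to 98.1 CPM across PSC and at 438, 109 and 68.4 CPM in PSCN. The procollagen enhancer PCOLCE2 stood at 47.5, 66.4 and 3.36 CPM and at 12.8, 11.4 and 6.91 CPM, and the lysyl oxidase LOXL1 at 59.5 to 154 CPM and at 83.2, 34.2 and 22.3 CPM. Without PSC library 3, PCOLCE2 was called lower (log2 fold change -2.44, adjusted p = 0.0403 with edgeR).

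Fibril-associated proteins had 12 tested genes, 1 lower and 0 higher at an unadjusted p under 0.05, and a median of 0.21 (-1.44 without PSCN library 1). Tenascin X (TNXB), which links fibrils in loose connective tissue, stood at 79.1, 37 and 9.08 CPM across PSC and at 2.64, 7.77 and 3.79 CPM in PSCN, below PSC in 3 of 3 libraries (log2 fold change -3.14, SE 0.86, adjusted p = 0.189 with edgeR). DESeq2, limma and edgeR without PSC library 3 each called it lower, with adjusted p of 0.00367, 0.0482 and 0.0418. Periostin (POSTN) stood at 93.3 to 214 CPM and at 1515, 167 and 148 CPM, and PRELP at 44.7 to 173 CPM and at 87.2, 63 and 32.8 CPM.

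Receptors and uptake proteins had 10 tested genes, 0 at an unadjusted p under 0.05 and a median of 0.28 (-0.36 without PSCN library 1). The fibroblast collagen receptor subunit ITGA11 stood at 2.35 to 7.18 CPM across PSC and at 107, 2.87 and 4.42 CPM in PSCN (log2 fold change 2.98, SE 1.47, and -0.39 without PSCN library 1). ITGA1, the receptor subunit that prefers type IV collagen, stood at 54.2, 50.4 and 67.1 CPM and at 37.3, 40.6 and 49.8 CPM, without overlap (-0.43, SE 0.18, adjusted p = 0.241). The platelet receptor GP6 was at most 2.94 CPM in any library. OSCAR, a collagen receptor of osteoclasts, stood at 9.89 CPM in PSCN library 1 and at 0.17 CPM or less elsewhere.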

How the data were processed

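Total RNA of 6 tumour biopsies was sequenced from stranded libraries, per the labels' protocols. Trimmomatic, HISAT2, StringTie and DESeq2, with no versions, and the build GRCm38 are listed in the submitters' processing notes, and the authors' deposited table holds whole-number counts per gene symbol. Strand use in that step is not given in the sources here, so reads of overlapping genes cannot be told apart. Members share at most 6.07% of their exon bases with another gene. The match of table columns to libraries is by letter and number and is not spelled out in the labels. The authors also deposited a mean normalized signal, log2 fold changes, a test score and p-values per gene.

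Genes were filtered with filterByExpr, scaled by TMM and fitted in edgeR 4.0.16 (R 4.3.3) by quasi-likelihood, with its F test (3 against 3 libraries, 4 residual and 2.03 prior degrees of freedom, Benjamini-Hochberg adjustment over all genes tested, threshold 0.05). SE is the log2 fold change over the square root of F. Scripts were tested on simulated data. Alternatives were DESeq2 1.42.0, voom of limma 3.58.1 with quality weights, other normalizations and filters, each library left out, a replicate block, sex as a covariate and PSC library 3 alone. The main fit did not pair samples by replicate number, and sex was read from XIST. Lengths are union exon lengths of GENCODE M21. The longest transcript was used as an alternative, since the union length of COL1A2 (12426 bases) exceeds its longest transcript (5348). Ratios of 10 chain pairs were planned and 9 could be computed, COL9A1 having counts of 0. Named members were, per class, up to 5 with the smallest p at 1 CPM or more, the 2 highest per length and all type IV chains, and of each pathway list up to 3 with the smallest p. Others are named after their values were seen. The members and lists were chosen with earlier results of these data known. Wilson intervals at 95% cover counting error only, as reads carry no molecular identifiers.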

Additional observations from a re-analysis of the deposited data

How the results depend on the processing

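Over 17 alternatives, 525 of 576 log2 fold changes of the 34 genes described kept their sign and side of the threshold, 37 turned and 14 passed it. RLE and upper quartile normalization and no filter turned none of the medians. The causes were not tested. DESeq2 called 1126 genes higher and 1834 lower, with 1 and 2 collagen members, 2 members higher at an unadjusted p under 0.05, 4 biosynthesis genes higher and 1 fibril-associated gene lower. Limma-voom called 1788 and 1238 genes, 1 member higher (3 at an unadjusted p), 4 biosynthesis genes higher and 1 fibril-associated gene lower, with that list's median at -0.40, COL22A1 at -0.26 and COL9A3 at 0.54. A filter of 1 CPM in 3 libraries gave 3 genes higher, 1 member lower at an unadjusted p, 1 without overlap, and a FACIT median of 0.24, since it tests fewer low genes.

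Deviations of log2 CPM from the group means correlated at 0.217, -0.063 and 0.072 between same-numbered libraries. Not every library correlated best with its own number. With 3 libraries per group, these values cannot settle whether the numbers pair samples. The replicate block left 0 genes called higher. With that block the other class was at -0.18, fibril-associated genes at -0.54 and COL4A4 at 0.073. Sex as a covariate, which leaves PSC library 1 as the only PSC library of the PSCN sex, gave fibril-associated genes -0.14, COL4A1 -0.25 and COL4A5 0.48. PSC library 3 as the only PSC library, with no spread of its own, gave basement membrane 0.36, FACIT 0.22, COL4A4 2.07, COL4A3 2.06, COL4A2 0.36, COL23A1 0.31, PCOLCE2 1.61, PRELP 0.43 and GP6 2.27. Adjusted deviances and leaving out 2 libraries at once were chosen after seeing the data. Adjusted deviances in edgeR called 3 genes higher. With PSC library 3 and PSCN library 1 both left out, 0 genes were called higher, 10 members were lower at an unadjusted p, and 6 lay above and 15 below PSC without overlap. Shares over all genes were not computed for that setting, so those member counts cannot be read as many or few. Medians there were -0.19 (fibrillar), -1.34 (other), -0.69 (processing), -1.62 (fibril-associated), 0.034 (biosynthesis) and -0.23 (receptors). COL11A1 was then at -0.77, COL1A1 -0.10, COL1A2 -0.47, COL4A1 -0.20, COL4A5 0.10, COL22A1 -1.80, COL6A3 -0.50, COL6A1 -1.07 and ITGA11 -0.37. Per longest transcript the PSC fibrillar level was 484.5 CPM per kb, against 311 per union exon length.

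Leaving out each library in turn, genes called ran from 0 to 751 higher and from 0 to 1195 lower, the maxima without PSC library 3. Members ran from 0 to 1 called higher, from 0 to 5 higher and 1 to 7 lower at an unadjusted p, and from 0 to 6 above and 3 to 11 below PSC without overlap. The 6 above came without PSC library 3 (27.4% of all genes) and the 11 below without PSCN library 1 (22%). The 7 lower also came without PSCN library 1 (10.6%), and the 1 called higher without PSC library 3 (3.39%). No share over all genes was computed for the 5 higher, which came without PSCN library 3. Called genes ran from 0 to 1 for biosynthesis (higher), processing and fibril-associated genes (lower). Medians ran from -0.51 to 2.35 (fibrillar), -0.55 to -0.03 (basement membrane), -0.59 to 0.14 (FACIT), -1.21 to 0.74 (other), -0.64 to 0.97 (processing), -1.44 to 0.57 (fibril-associated), 0.021 to 0.72 (biosynthesis) and -0.36 to 0.46 (receptors). Log2 fold changes ran from -1.41 to 5.95 for COL11A1, -0.67 to 3.73 for COL1A1, -0.87 to 3.57 for COL1A2, -0.96 to 0.53 for COL4A4, -1.28 to 0.51 for COL4A3, -0.10 to 0.39 for COL4A1, -0.86 to 0.11 for COL4A5, -0.30 to 0.28 for COL4A2, -1.59 to 3.99 for COL22A1, -0.017 to 2.03 for COL12A1, -1.0 to 0.14 for COL9A3, -0.62 to 2.35 for COL6A3, -1.02 to 1.45 for COL6A1 and -0.39 to 3.47 for ITGA11. COL6A6 moved from -3.76 to -2.27 without PSC library 3. The log2 ratio difference of COL4A3 to COL4A4 ran from -0.51 to 0.00036. The positive fibrillar median and the sign of the type I, COL6A1, COL6A2, COL6A3, COL6A5 and COL22A1 values rest on PSCN library 1. COL6A4 and COL6A6 kept their sign without it.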

Other observations

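Genes with collagen-like repeats that are not collagen chains were listed after the data had been seen. Of 17 listed, 14 were tested, with 0 higher and 3 lower at an unadjusted p under 0.05 (9.48% and 12.2% of all genes tested), and their median log2 fold change was 0.22 (-0.84 without PSCN library 1). COLQ, the collagen-like tail of acetylcholinesterase, stood at 3.48, 5.64 and 3.96 CPM across PSC and at 1.37, 0.185 and 0.349 CPM in PSCN, lower in 3 of 3 PSCN libraries (log2 fold change -2.78, SE 0.80, adjusted p = 0.191 with edgeR). C1QTNF3 stood at 0.634 to 1.88 CPM and at 63.4, 0.34 and 1.27 CPM. CTHRC1, a secreted protein of matrix-producing fibroblasts, stood at 2.42 to 6.42 CPM and at 46.3, 0.85 and 0.907 CPM. Both were highest in PSCN library 1 and below the PSC range in PSCN library 2 (log2 fold changes 4.11, SE 1.92, and 2.06, SE 1.59).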
